A study of Mus musculus with 3 samples.

Results

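Genes of protein folding in the endoplasmic reticulum (ER) and of the unfolded protein response are described here in fibroblast cultures given thyroid factors and in cultured thyroid cells of the mouse. The set holds 39 genes chosen by name for this function, and 38 of them have a named probe among the 18951 genes measured; the oxidoreductase Pdia3 was not analysed here. They were divided by role into chaperones, disulfide enzymes, the translocon, stress sensors with their transcription factors, ER-associated degradation (ERAD), and targets of the PERK-ATF4 branch. Ero1l is listed under its current symbol Ero1a in the annotation.

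The 3 cultures were measured on 1 microarray each, so every group has n = 1. The 7-factor culture came from embryonic fibroblasts (E13.5) of ICR mice that went through 2 rounds of retroviral infection with Pax8, Nkx2.1 and Foxe1 of the thyroid together with the reprogramming factors Oct3/4, Sox2, Klf4 and c-Myc. The 8-factor culture received these plus Hhex. Both spent 1 week in serum medium. They then had 2 weeks in a medium with serum, nonessential amino acids, antibiotics, N2 and B27 supplements, iodide as potassium iodide (1 µg/mL) and thyroid stimulating hormone (1 U/mL), and the labels date them to 21 days. The reference was a primary culture of thyroid follicular cells from ICR adults, which spent 1 week in the hormone medium. The labels name no sorting or drug selection of infected cells, and no array of uninfected fibroblasts was analysed here.

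The ER is where secreted and membrane proteins are folded. Proteins enter it through the Sec61 translocon, are bound by chaperones such as BiP (Hspa5) and by the lectins calnexin and calreticulin, receive disulfide bonds from protein disulfide isomerases, and are sent out for degradation when folding fails. When unfolded protein builds up, the membrane sensors IRE1 (Ern1), PERK (Eif2ak3) and ATF6 (Atf6) raise the chaperone and degradation genes and lower protein synthesis. Thyroid follicular cells fold and secrete thyroglobulin, a very large disulfide-rich glycoprotein, and rely on this machinery, and fibroblasts rely on it for collagen.

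Levels are log2 signals relative to the 75th percentile of each array. A level compares the same gene between arrays, not one gene with another, because probes bind with different strength. A gene was called higher or lower where arrays differed by 2-fold or more. With 1 array in each group there was no test and no p-value, and no difference below was set against a spread between replicates. The error given with a difference is the scanner software's own error of both spots, which covers the reading of the spots and not the cultures. It lay between 0.204 and 0.209 (log2) for the members in all 3 comparisons. All 38 members were well above background on all 3 arrays, no spot was saturated, and every difference of a member was measured on both sides.

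The arrays differed as a whole. The signal at the 75th percentile stood at 2190 (intensity) for 7 factors, 2535 for 8 factors and 504 for the primary culture, and the primary array lay on another slide scanned in another run, so slide, scan and group cannot be told apart. Marker genes separated the cultures as well. All 9 markers of thyroid follicular cells that were compared were lower in both induced cultures, and thyroglobulin (Tg) stood at -2.93 with 7 factors, -3.85 with 8 and 8.89 in the primary culture. Iyd was not well above background in either induced culture, nor was Slc5a5 in the 7-factor culture or Pax8 in the 8-factor culture. Of the delivered thyroid factors, Nkx2-1 stood at -6.38, -5.74 and 2.62 in the same order, Pax8 at -6.85 with 7 factors against 0.55 in the primary culture, and Foxe1 at 0.72, 1.12 and 3.21. The low Nkx2-1 and Pax8 values would go against the labels of the induced cultures if these probes read the delivered copies. The files do not say where the probes lie, so whether they read the delivered copies is unknown. Fibroblast markers were higher than in the primary culture for 10 of 12 genes with 7 factors and 9 of 12 with 8 factors.

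Against the primary culture, the ER genes of the 7-factor culture were mostly lower or little changed. Of the 38 members 13 were lower, 1 was higher and 24 differed by less than 2-fold, with a median log2 difference of -0.62. Among all 16152 genes compared, 27.1% were lower and 19.1% higher, with a median of 0. Some of these are bounds, part of them set to 0, whereas every member was measured on both arrays. Of the 14055 genes above background on both arrays, 28.8% were lower and 19.1% higher, with a median of -0.08. With each array scaled to its median, all genes split into 22.9% lower and 26.1% higher, with their median at 0.12, and 8 members were lower in place of 13. With no scaling 7.06% of all genes were lower and 69.4% higher, with a median of 1.94. The members' median lay 0.44 below that of all genes under both, so every direction below is relative to the scale of the arrays. Most members are bright on these arrays, and bright genes were less often lower. Of the 7458 genes with a mean level of 0 or above, 1005 were lower and 1599 higher, with a median of 0.24. The 34 members of that brightness had 9 lower (26.5%) and 1 higher (2.94%), with a median of -0.44. The remaining 4 members, Ern1, Edem2, Derl3 and Ppp1r15a, were all lower. The mean level includes the induced arrays, so low values there also move a gene toward the dim class. In the primary culture Derl3, Ppp1r15a and Edem2 stood at 1.13, 0.74 and 0.01, so their place among dim genes is partly fixed by their differences. Of all genes with a mean level from -4 to -2, where 2 of these 4 lie, 39.7% were lower. From -2 to 0, where the other 2 lie, 26.6% were lower. The share lower among bright members was above that of all bright genes, and the share higher was below it, as a description of these arrays. Of the 14 calls, 10 passed 2-fold by more than the scanner error.

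The 8-factor culture gave 14 lower members, 1 higher and 23 under 2-fold, with a median of -0.70. Of all 16161 genes compared, 27.5% were lower and 17.8% higher. Of the 14068 above background on both arrays, 29.4% were lower and 17.6% higher. Of the 7458 with a mean level of 0 or above, 1107 were lower and 1424 higher. The members of that brightness had 10 of 34 lower (29.4%) and 1 higher (2.94%), with a median of -0.49 against 0.16 for all such genes. With no scaling 72.5% of all genes and 26 members were higher. Both comparisons use the same primary array, so they are not independent of each other.

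**Figure D1:**
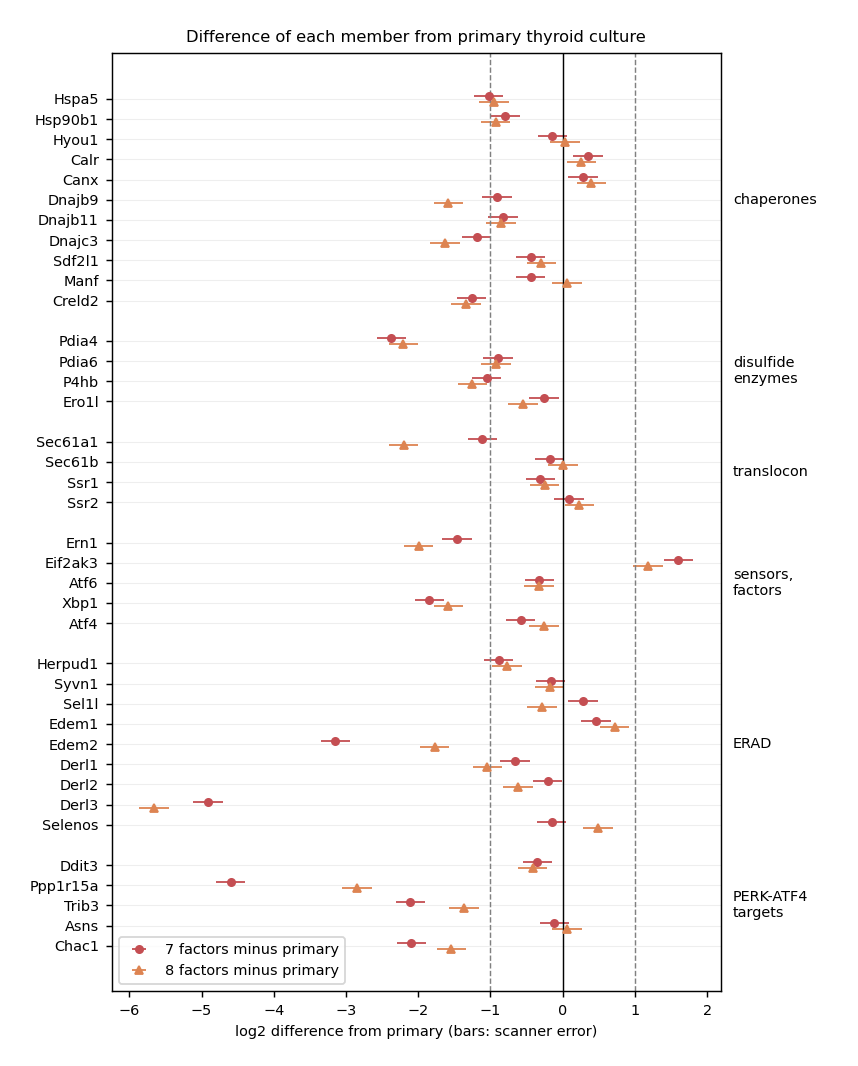
Log2 difference of each of the 38 members from the primary culture (x axis), for the 7-factor culture (circles) and the 8-factor culture (triangles), with members grouped by role. Bars are the scanner error of 1 array against 1 array, and dashed lines mark 2-fold; without scaling all points would lie 2.12 (7 factors) or 2.33 (8 factors) farther right. Derl3 and Ppp1r15a lie farthest to the left, and Eif2ak3 is the one member to the right of the 2-fold line in each comparison.

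**Figure D2:**
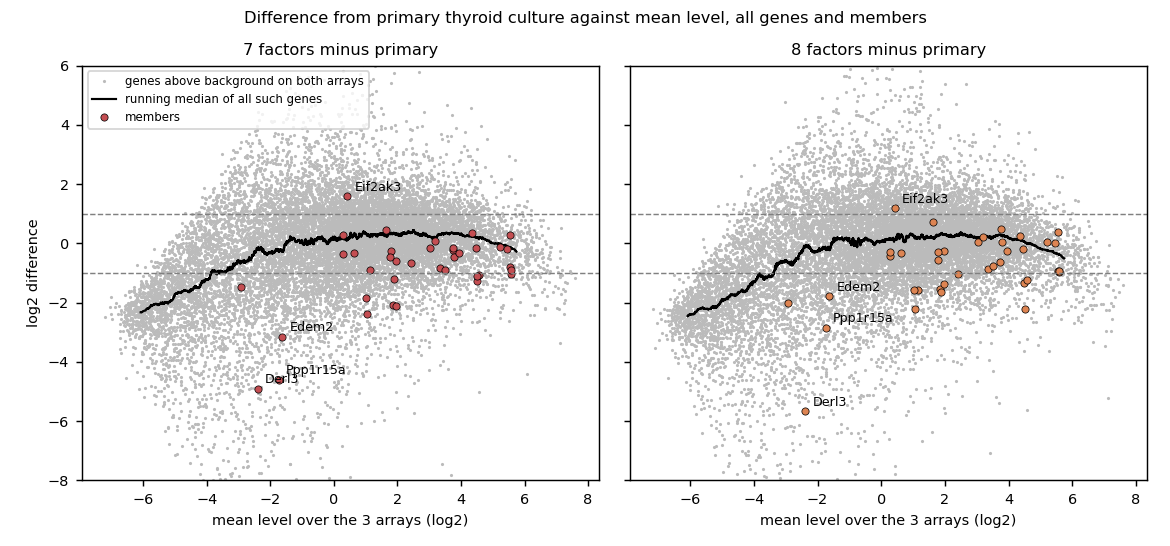
Log2 difference from the primary culture (y axis) against the mean level over the 3 arrays (x axis) for genes above background on both arrays (grey; genes beyond the axis are not drawn), their running median (black) and the members (coloured). The running median falls for dim genes and for the brightest ones, and most members lie below it.

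Lower calls among chaperones were too few to set their share apart from that of all genes or of genes as bright. Of 11 chaperones, 3 were lower and 0 higher with 7 factors (median -0.80), and as many with 8 factors (median -0.86). Among all genes 27.1% and 27.5% were lower. With 7 factors, all 3 calls fell short of 2-fold under at least 1 alternative processing that kept scaling. Their smallest differences were -0.41 (Hspa5), -0.81 (Dnajc3) and -0.96 (Creld2). With 8 factors Dnajc3 alone fell short (-0.97), and Dnajb9 and Creld2 stayed past 2-fold. BiP (Hspa5), the central ER chaperone and the partner that holds the sensors inactive, had levels of 5.21 with 7 factors, 5.29 with 8 and 6.24 in primary cells, the order used for all levels below. It was 2.04-fold lower with 7 factors (log2 -1.03, scanner error 0.20), and with 8 factors it fell short of the 2-fold mark at 1.93-fold (log2 -0.95), so both values lay within the scanner error of that mark. The co-chaperone Dnajc3 stood at 1.64, 1.19 and 2.83, or 2.28-fold and 3.1-fold lower. Averaging its 4 probes gave -0.81 and -0.97. Creld2, a secreted folding factor induced by ER stress, stood at 4.11, 4.03 and 5.37 and was 2.40-fold and 2.53-fold lower, with the induced cultures within the scanner error of each other. Dnajb9, a BiP co-chaperone that serves degradation, was at 1.06, 0.39 and 1.97, which is 3.0-fold lower with 8 factors and 1.88-fold lower with 7. Its dimmer probes differed by -0.62 and -0.84 with 8 factors, under 2-fold, and by -0.10 and -1.11 with 7.

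The other chaperones stayed under 2-fold. Hsp90b1, the ER form of Hsp90, differed by -0.80 and -0.93 on its brightest probe and by 0.45 and 0.28 on its other probe. Dnajb11 differed by -0.82 and -0.86 and Sdf2l1 by -0.44 and -0.30. Hyou1 differed by -0.14 and 0.03, within the scanner error both times. Manf, a small secreted factor of ER stress, differed by -0.44 with 7 factors and 0.06 with 8. On their brightest probes the lectin chaperones were on the other side of 0: calnexin (Canx) differed by 0.28 and 0.40 and calreticulin (Calr) by 0.35 and 0.26. The dimmer probes of Canx differed by 0.625 and -0.25 with 7 factors and by -0.63 and -0.45 with 8. The second probe of Calr went the other way, with -1.88 and -1.75.

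Of the 4 disulfide enzymes measured, 2 were lower in each comparison, Pdia4 and P4hb, with medians over the 4 of -0.98 and -1.09. Of all genes, 27.1% were lower with 7 factors and 27.5% with 8. Pdia4, an isomerase with an additional thioredoxin domain, had levels of 0.20, 0.37 and 2.57, or 5.18-fold and 4.62-fold lower in the induced cultures, which lay within the scanner error of each other. P4hb, the classical protein disulfide isomerase and also a subunit of the collagen prolyl hydroxylase, stood at 4.30, 4.10 and 5.35, or 2.08-fold and 2.38-fold lower. Pdia6 differed by -0.90 and -0.92. Ero1l, the oxidase that recharges these enzymes, differed by -0.26 and -0.55, and its second probe by 1.22 and 0.56. The difference of Pdia4 exceeded that of Pdia6 by -1.48 in the 7-factor culture (scanner error 0.29) and by -1.28 in the 8-factor culture.

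**Figure D3:**
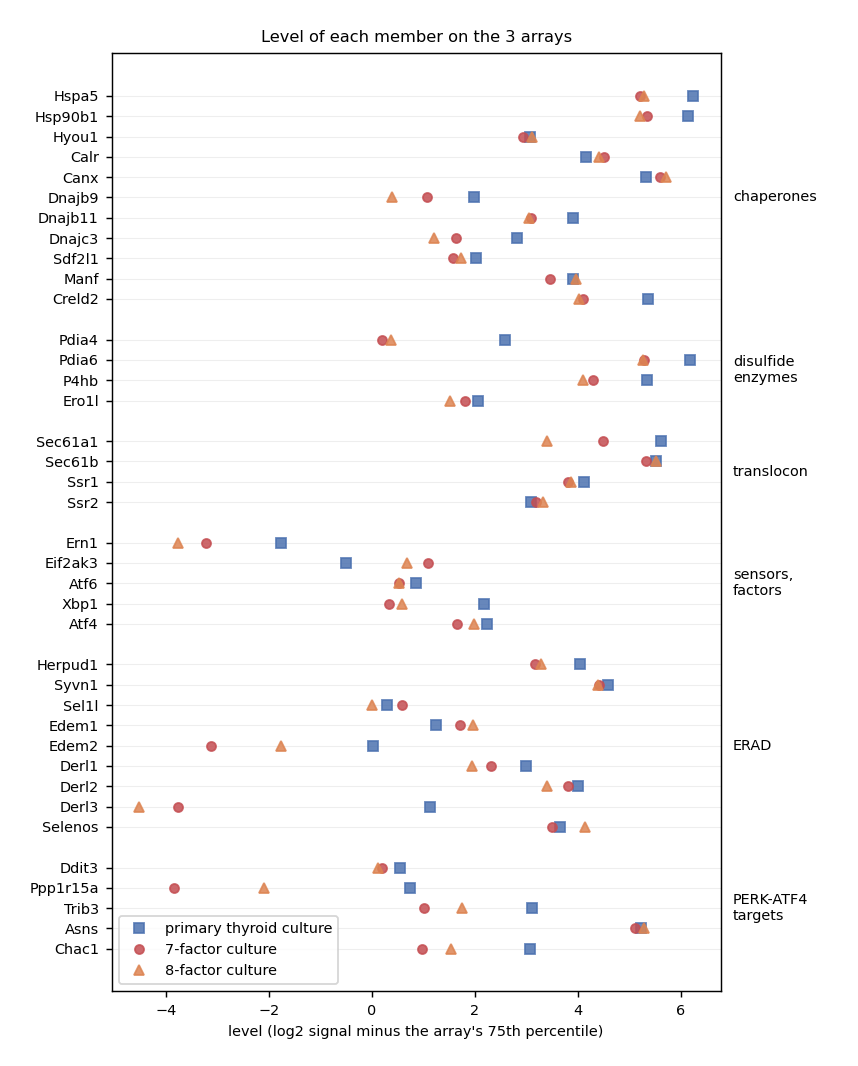
Level of each member (log2 signal minus the array's 75th percentile) on the primary (squares), 7-factor (circles) and 8-factor (triangles) arrays, grouped by role. For Pdia4, Xbp1, Derl3, Trib3 and Chac1 the squares lie apart to the right of both other symbols, while for Sec61b, Syvn1 and Asns the 3 symbols lie close together.

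Some of the promoters hold a DNA element of the ER stress response. The genes were chosen by name for this response, so their share with the element is no independent result. The ER stress response element (ERSE) is the sequence CCAAT, a spacer of 9 bases and CCACG, bound by NF-Y at one end and by ATF6 or XBP1 at the other. RefSeq promoter windows of build GRCm38.p6, from 250 bases before to 50 after a start site, were matched for 32 of the 38 members and searched on both strands. An exact ERSE was found in 9 of these 32 members, and in 24 of 15076 genes of the array with a window (0.159%), members included. Over all windows of the table, of the same length, the share was 0.119%. The 9 members hold 10 matches, shown here 5′ to 3′ in the orientation of the element with its 2 fixed ends in capitals, because a classical stress element recurs among them. By role they are 6 of the 9 chaperones with a window, the ERAD genes Derl3 and Syvn1, and the disulfide enzyme Pdia6.
Calr: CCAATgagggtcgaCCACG
Canx: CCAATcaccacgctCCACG
Creld2: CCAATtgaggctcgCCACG
Derl3: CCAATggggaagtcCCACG
Dnajc3: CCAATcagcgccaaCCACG
Hsp90b1 (farther from the start site): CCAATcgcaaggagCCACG
Hsp90b1 (nearer to the start site): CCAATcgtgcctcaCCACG
Hspa5: CCAATcggaggcctCCACG
Pdia6: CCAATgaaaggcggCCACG
Syvn1: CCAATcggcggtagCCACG

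The element ran in the direction of the gene in 6 of these matches and against it in the other 4, and all lay before the start site, from 44 to 212 bases upstream. A match is a description of letters and not of binding. The 9 members with an ERSE had a median difference of -0.90 in the 7-factor and -0.93 in the 8-factor culture, with 4 and 3 lower, and the 23 with a window but no ERSE had -0.58 and -0.62, with 8 and 9 lower. Their values ran from -4.91 (Derl3) to 0.35 (Calr) with 7 factors, so genes with the same element differed widely. The other 15 genes of the array with an ERSE gave 12 that could be compared. Of these, 3 were higher and 3 lower with 7 factors (median -0.57), and 3 were higher and 5 lower with 8 (median -0.23). CCACG alone is common, in 27 of the 32 members and 43.7% of array genes. The element ERSE-II, ATTGG and CCACG around any 1 base, was found in Dnajb11 and Herpud1, against 0.0597% of array genes, and overlaps CCACG. The XBP1 element TGACGTGG was found in no member window and in 0.902% of array genes, which says only that these letters are not in these windows.

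Promoters of 3 members with one of these elements follow, as the 250 bases before the start site, 5′ to 3′ on the strand of the gene and with matches in capitals. Hspa5 is the classical gene of the element, Derl3 had the widest difference of all members, and Herpud1 holds an ERSE-II and, before it, a match on the opposite strand to TGATGNAA, the core of the element bound by ATF4 and CHOP.
Hspa5, chr2:34771840-34772089, + strand: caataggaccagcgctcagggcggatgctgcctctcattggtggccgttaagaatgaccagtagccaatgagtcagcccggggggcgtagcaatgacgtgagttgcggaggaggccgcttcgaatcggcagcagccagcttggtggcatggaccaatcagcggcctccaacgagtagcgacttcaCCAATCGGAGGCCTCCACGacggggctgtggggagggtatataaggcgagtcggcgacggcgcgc
Derl3, chr10:75893148-75893397, + strand: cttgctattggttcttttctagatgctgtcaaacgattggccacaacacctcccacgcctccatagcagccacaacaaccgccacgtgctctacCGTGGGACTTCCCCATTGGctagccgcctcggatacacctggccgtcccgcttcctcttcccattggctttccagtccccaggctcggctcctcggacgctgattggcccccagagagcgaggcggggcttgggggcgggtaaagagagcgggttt
Herpud1, chr8:94386179-94386428, + strand: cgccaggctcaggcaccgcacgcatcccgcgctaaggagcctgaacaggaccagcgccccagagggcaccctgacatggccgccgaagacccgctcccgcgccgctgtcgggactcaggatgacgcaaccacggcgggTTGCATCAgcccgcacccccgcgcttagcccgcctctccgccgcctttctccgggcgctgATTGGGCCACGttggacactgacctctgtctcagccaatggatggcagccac

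In the translocon 1 of 4 members, the channel subunit, was lower in each comparison, beside 27.1% and 27.5% of all genes. Sec61a1, which forms the channel, had levels of 4.49, 3.40 and 5.61, or 2.16-fold lower with 7 factors and 4.61-fold lower with 8. Its other probes differed by -1.67 and -0.71 with 7 factors and by -1.38 and 0.00 with 8, and the average of the probes was -1.17 and -1.19. Sec61b, a small channel subunit, stood at 5.33, 5.52 and 5.51, and the signal sequence receptors Ssr1 and Ssr2 differed by -0.31 and 0.09 with 7 factors and by -0.25 and 0.23 with 8. All 3 were under 2-fold in both comparisons, and the 4 dimmer probes of Ssr1 ranged from -0.08 to 0.89 with 7 factors and from 0.09 to 1.16 with 8.

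The 3 stress sensors went 3 ways. Eif2ak3 (PERK), the kinase that phosphorylates the initiation factor eIF2alpha, was the one member higher than in the primary culture. Its levels were 1.09, 0.68 and -0.51, which is 3.03-fold higher with 7 factors (log2 1.60, scanner error 0.20) and 2.27-fold higher with 8 (log2 1.18). With normexp background correction the 8-factor value was 0.71 and no longer past 2-fold. Ern1 (IRE1), the kinase and endoribonuclease that splices Xbp1 mRNA, stood at -3.23, -3.77 and -1.77, or 2.75-fold and 3.99-fold lower. Atf6, the sensor that is cleaved into a transcription factor, was at 0.53, 0.52 and 0.85, a difference of -0.32 and -0.33, and its second probe differed by 0.27 and 0.62. The difference of Eif2ak3 exceeded that of Ern1 by 3.06 in the 7-factor and 3.18 in the 8-factor culture, with a scanner error of 0.29.

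Of the transcription factors downstream of these sensors, Xbp1 was lower and Atf4 under 2-fold. Xbp1, which directs ER expansion in secretory cells, had levels of 0.32, 0.58 and 2.17, or 3.60-fold lower with 7 factors (log2 -1.85) and 3.0-fold lower with 8 (log2 -1.58). The 2 induced cultures differed by 0.26. Atf4, whose protein is made when eIF2alpha is phosphorylated, stood at 1.66, 1.98 and 2.24 and differed by -0.58 and -0.26. The single probe of each gene measures total mRNA, so neither splicing of Xbp1 nor translation of Atf4 was measured.

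ERAD genes split within families. Of 9 members, 2 were lower with 7 factors and 3 with 8, with none higher and medians of -0.21 and -0.62. These counts are near the shares of all genes lower, 27.1% and 27.5%. Derl3, a derlin of the degradation channel found in cells with heavy secretion, had levels of -3.78, -4.53 and 1.13. It was 30.0-fold lower with 7 factors (log2 -4.91, scanner error 0.21) and 50.4-fold lower with 8 (log2 -5.66), the widest difference of the members in both comparisons. Its paralogs were much closer to the primary culture: Derl1 stood at 2.32, 1.94 and 2.98 (-0.66 and -1.04) and Derl2 at 3.80, 3.39 and 4.01 (-0.21 and -0.62). The second probe of Derl2 differed by 0.97 and 1.05. The difference of Derl3 exceeded that of Derl1 by -4.25 in the 7-factor culture and by -4.61 in the 8-factor culture, with scanner errors of 0.29.

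The EDEM proteins, lectins that mark misfolded glycoproteins for degradation, showed the same inequality. Edem2 had levels of -3.13, -1.76 and 0.01, which is 8.86-fold lower with 7 factors and 3.42-fold lower with 8. Edem1 stood at 1.71, 1.96 and 1.24 and differed by 0.46 and 0.72, although its 2 dimmer probes were below the primary culture in both comparisons, at -1.09 and -0.73 with 7 factors. The ligase Syvn1 (HRD1) was level, with differences of -0.17 and -0.18. Its partner Sel1l differed by 0.28 and -0.29 on its brightest probe and by -1.47 and -1.39 on the other. Herpud1, which gathers the ERAD complex, differed by -0.89 and -0.77, and the selenoprotein Selenos by -0.16 and 0.49.

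Targets of the PERK-ATF4 branch had the lowest median of the 6 roles in both comparisons with the primary culture, and they too split. Of the 5 genes, 3 were lower with 7 factors (median -2.09) and the same count was lower with 8 factors (median -1.37). Among all genes the shares lower were 27.1% and 27.5%. Ppp1r15a (GADD34), the phosphatase subunit that ends the block of translation, had levels of -3.86, -2.11 and 0.74. This is 24.2-fold lower with 7 factors (log2 -4.60, scanner error 0.21) and 7.20-fold lower with 8 (log2 -2.85). Trib3, a pseudokinase induced by CHOP, stood at 1.01, 1.75 and 3.12, or 4.31-fold and 2.58-fold lower, and its second probe was lower too, by -4.36 and -2.99. Chac1, an enzyme that degrades glutathione, stood at 0.97, 1.53 and 3.07, or 4.27-fold and 2.91-fold lower. For each of these 3 genes the 8-factor culture lay between the 7-factor and the primary culture.

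Asns and Ddit3 did not share this pattern. Asns (asparagine synthetase), a classical ATF4 target, stood at 5.12, 5.29 and 5.23 and differed by -0.12 and 0.06, within the scanner error. Ddit3 (CHOP), the stress transcription factor upstream of Trib3 and Ppp1r15a, stood at 0.19, 0.12 and 0.54 and differed by -0.35 and -0.42. The difference of Chac1 exceeded that of Asns by -1.98 and -1.60, and that of Ppp1r15a exceeded that of Ddit3 by -4.25 and -2.43, each with a scanner error of 0.29.

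TGATGNAA was found on either strand in the windows of 4 members, Asns, Chac1, Herpud1 and Trib3, against 3.62% of array genes. In Trib3 it lay 15 bases past the start site. These 4 differed by -0.12, -2.09, -0.89 and -2.11 with 7 factors. The promoters of Chac1 and Asns are shown because a match to this pattern stands before genes that differed so unequally, TGATGaAA on the strand of Asns and TGATGcAA on the strand opposite to Chac1, again as the 250 bases before the start site with the match in capitals.
Chac1, chr2:119350992-119351241, + strand: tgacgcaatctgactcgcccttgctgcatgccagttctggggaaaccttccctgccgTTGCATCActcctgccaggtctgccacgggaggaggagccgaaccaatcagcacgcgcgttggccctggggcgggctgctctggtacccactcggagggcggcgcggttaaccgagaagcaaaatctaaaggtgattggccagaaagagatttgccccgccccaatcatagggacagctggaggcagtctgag
Asns, chr6:7693210-7693459, - strand: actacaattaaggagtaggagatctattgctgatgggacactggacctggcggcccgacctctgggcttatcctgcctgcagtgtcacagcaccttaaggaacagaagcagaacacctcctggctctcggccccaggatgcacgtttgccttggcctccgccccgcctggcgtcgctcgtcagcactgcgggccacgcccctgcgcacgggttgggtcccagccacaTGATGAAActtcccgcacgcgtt

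The comparison of 8 with 7 factors, both on 1 slide, asks what adding Hhex went with. The members were close: 2 were higher, 1 lower and 35 under 2-fold, with a median of 0.03, and 19 lay within the scanner error. Of all 16260 genes compared, 4.54% were higher and 4.04% lower, and the median was -0.09. No scaling gave 7.38% and 2.08%. Ppp1r15a was 3.37-fold higher with 8 factors (log2 1.75, scanner error 0.21) and Edem2 2.59-fold higher (log2 1.37). Both are among the 4 members with a mean level below 0, where calls between these arrays were more frequent: of the 7458 genes at 0 or above, 137 were higher and 189 lower. Sec61a1 was 2.13-fold lower on its brightest probe (log2 -1.09), but its other probes differed by 0.30 and 0.71 and the average of the 3 was -0.03.

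By role, the PERK-ATF4 targets had the highest median, 0.55, with Trib3 at 0.74, Chac1 at 0.55, Asns at 0.18 and Ddit3 at -0.07. Selenos differed by 0.65 and Manf by 0.51. At the other end were Derl3 at -0.75, Dnajb9 at -0.67, Sel1l at -0.57, Ern1 at -0.54 and Eif2ak3 at -0.42. Disulfide enzymes and chaperones had medians of -0.11 and -0.03.

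**Figure D4:**
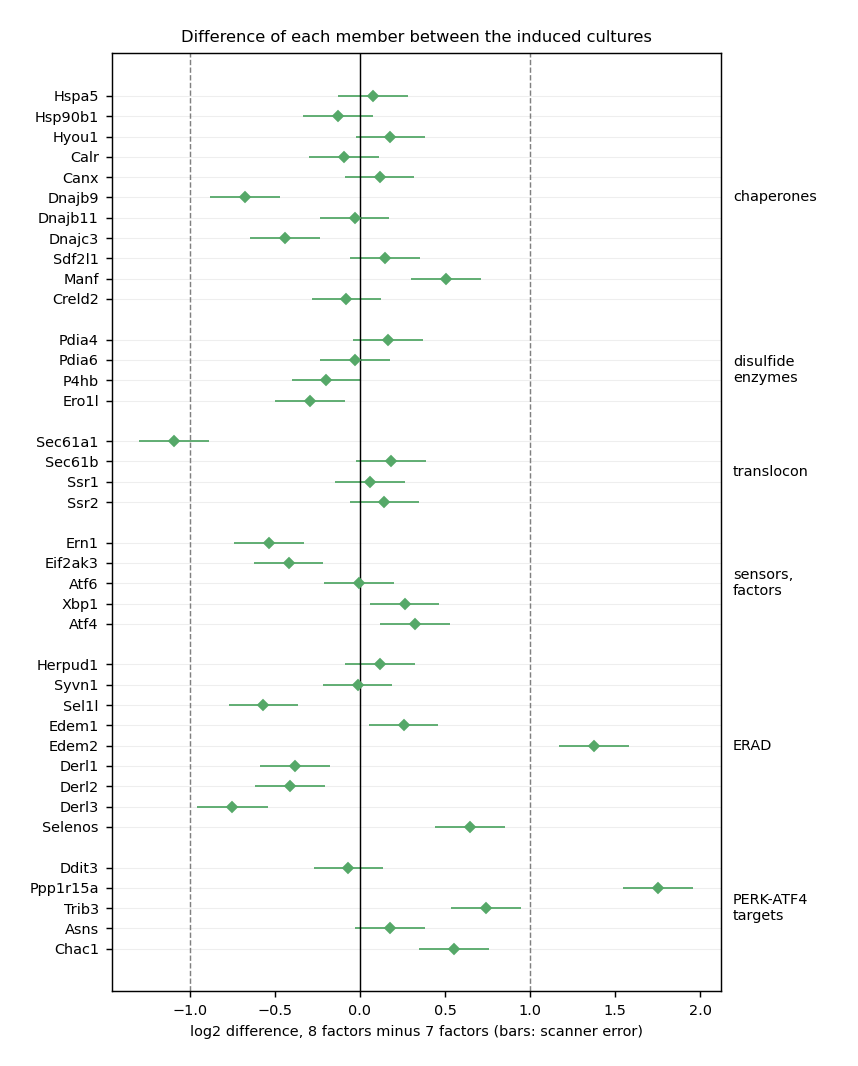
Log2 difference of each member between the induced cultures, 8 factors minus 7 factors (x axis), grouped by role, with bars for the scanner error and dashed lines at 2-fold. Ppp1r15a and Edem2 lie right of the 2-fold line and Sec61a1 lies left of it, and 19 of 38 members lie within the scanner error of 0.

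Separate probes of a gene gave repeat readings of these values. Among the 15 members with several probes above background on all arrays, the probes of 6 had 1 sign throughout in the 7-factor comparison, and those of the other 9 (Atf6, Calr, Canx, Derl2, Edem1, Ero1l, Hsp90b1, Sel1l and Ssr1) had both signs. Dnajb9, Dnajc3, Derl1, Pdia6, Sec61a1 and Trib3 were below the primary culture on every probe there. With 8 factors 9 members again had probes of both signs, and between the induced cultures 12 of 15 did. No member had probes past 2-fold in opposite directions in any of the 3 comparisons. The array files give no probe sequences, so which part or isoform of a transcript each probe reads is unknown. Among members past 2-fold, the values of Hspa5, Creld2, Pdia4, P4hb, Ern1, Eif2ak3, Xbp1, Edem2, Derl3, Ppp1r15a and Chac1 rest on 1 probe.

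**Figure D5:**
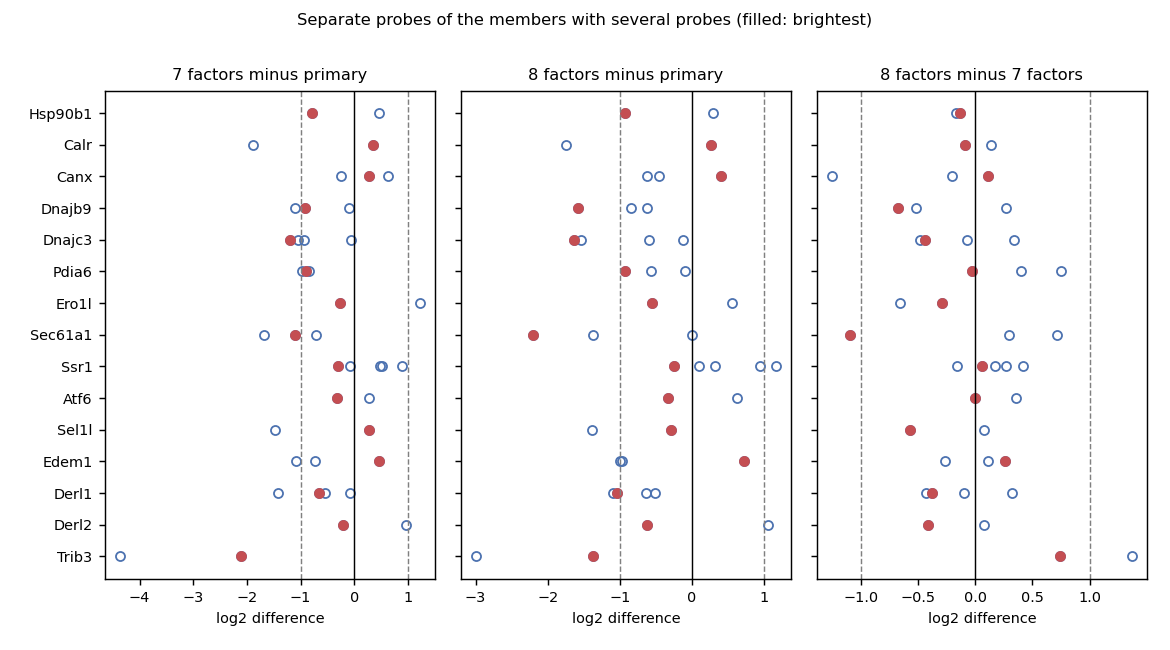
Log2 differences of the separate probes of the 15 members with several probes above background on all arrays, for 7 factors minus primary, 8 factors minus primary and 8 minus 7 factors (filled, brightest probe; open, the others; dashed lines, 2-fold). The probes of Calr, Hsp90b1, Edem1 and Derl2 fall on both sides of 0 in both comparisons with the primary culture, and both probes of Trib3 fall left of -1 in each.

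Other genes of the same pathways, 120 in 6 lists, gave 12 higher and 25 lower with 7 factors (median -0.28) and 13 higher and 22 lower with 8 (median -0.18). These shares lower were below the 27.1% and 27.5% of all genes. Of the 7458 genes with a mean level of 0 or above, 1005 were lower with 7 factors and 1107 with 8. Most of the 120 genes are of that brightness, but some are dimmer, and their bright genes were not counted apart. The shares of the lists therefore cannot be set against those of bright genes. In the list of oxidative folding and collagen folding genes, 3 of 19 were higher and 3 lower with 7 factors. The lysyl hydroxylase Plod1 (8.40-fold) and the prolyl hydroxylase P3h1 (6.05-fold) were lower, and the prolyl isomerase Fkbp14 was 4.89-fold higher, although its other probe differed by 0.10. In the list of translocation and signal cleavage, 2 of 20 were higher and 4 lower. The signal peptidase subunit Spcs3 was 6.08-fold lower, with all 3 probes between -2.60 and -2.34, and the signal recognition particle protein Srp68 was 5.95-fold lower, while the second channel gene Sec61a2 was 5.17-fold higher. Sec61a1 and Sec61a2, which encode alternative forms of the channel, thus lay on opposite sides of the primary culture.

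N-glycosylation genes and ERAD machinery had medians just above 0 with 7 factors, 0.23 and 0.08, with 3 of 18 and 1 of 15 higher and 1 lower in each. The folding sensor Uggt2 was 6.37-fold higher and the mannosidase Man1b1 2.38-fold higher, while the oligosaccharyltransferase subunit Rpn1 was 2.31-fold lower. The other Uggt2 probe above background on all arrays differed by 2.08, and the dimmest of the 3 Rpn1 probes by -0.11. The ERAD factor Aup1 was 3.37-fold lower and Faf2 2.46-fold higher, the latter with a second probe at -0.53, and Nploc4 differed by -0.79.

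The list of further stress sensors and regulators had the lowest median of the 6, -0.85, with 6 of 18 lower and 1 higher with 7 factors. With 8 factors its median was -0.28, with 5 lower and 2 higher, and not the lowest. The membrane-bound factor Creb3 was 5.31-fold and the ER membrane protein Tmbim6, an inhibitor of cell death, 4.72-fold lower. Creb3l3, an ER-bound factor of liver and gut, had levels of -3.83, 0.53 and -1.30, so it was 5.77-fold lower with 7 factors, 3.56-fold higher with 8 factors and 20.6-fold higher with 8 than with 7. It has 1 probe. Among ATF4 targets of amino acid supply and stress, 10 of 30 were lower and 2 higher with 7 factors (median -0.62), and 6 were lower and 3 higher with 8 (median -0.40). The cystine transporter Slc7a11 was 19.1-fold and 11.3-fold lower, with its other 2 probes lower too, and the cationic amino acid transporter Slc7a3 lower by log2 differences of -3.76 and -1.82. The transcription factor Cebpb was 4.36-fold lower with 7 factors and 1.39-fold lower with 8. Between the induced cultures 2 of these 30 were higher with 8 factors, 0 lower, with a median of 0.22.

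Markers of several cell types differed between the cultures as well. In bulk RNA, fewer cells of a type and less RNA per cell cannot be told apart. Leukocyte markers were lower than in the primary culture for 9 of 9 genes in both induced cultures, with a summed signal (in units of the array's 75th percentile) of 0.347 with 7 factors, 0.236 with 8 and 96.2 in the primary culture. Markers of C cells and parathyroid cells, which secrete calcitonin and parathyroid hormone, were lower for 5 of 6 and 6 of 6 genes, with summed signals of 1.33, 6.61 and 364. Plasma and B cell markers were lower for 4 of 7 and 4 of 6 genes compared, with sums of 4.33, 4.45 and 5.63. Of the genes compared, 5 were measured on both arrays in each comparison, and the others are bounds. Most of these sums was Sdc1, a gene of other cells too, at levels of 2.07, 2.11 and 1.97, and the other 9 genes summed to 0.145, 0.134 and 1.7. Ms4a1, Tnfrsf17 and Irf4 were not well above background on any array, and the secretory factor Mzb1 stood at -6.84, -6.50 and -3.95. The thyroid markers summed to 1.86, 2.34 and 521, the fibroblast markers to 394, 262 and 118, and the skeletal muscle markers, lower for 5 of 5 and 4 of 5 genes, to 0.212, 0.455 and 1.37. The part of these cell types in the differences of the ER genes was not tested.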

How the data were processed

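Total RNA of each culture was labelled with Cy3 and hybridised to 1 one-colour Agilent array, per the labels' protocols. The deposited processed signal is an intensity from Feature Extraction 11.5.1.1, per the file headers, with background subtracted and spatial trends removed but no scaling between arrays; the submitters' processing notes name version 10.5. The deposited value table equals these intensity values to within 0.00252%, although the design text names a shift to the 75th percentile. Each spot also has deposited marks, coded as other values, for being well above background, saturated or an outlier, per the file headers.

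Control and outlier spots were left out, copies of a probe were averaged as log2 values (41171 probes), and each array was set to 0 at its 75th percentile. Of these probes, 27815 (67.6%) were named by RefSeq accession through the GRCm38.p6 table (names and promoters only; the array grid is mm9), and the 13356 others were not analysed here. A gene is its brightest probe by mean over the arrays. Where a gene was not well above background on 1 array, the lowest signal marked above background there, or its own signal if higher, took its place. A difference that this would turn to the other sign was set to 0. The members and lists were chosen with earlier results of these data known. The text accounts for every member, gives all levels for those at least 2-fold different and for the sensors and factors, and names the 3 genes with the largest 7-factor differences in each further list; marker genes named singly were picked after their values were seen.

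The steps were tested on simulated data. Python 3.11.15, numpy 2.4.6, pandas 2.3.3, R 4.3.3 and limma 3.58.1 (normexp) were used. Alternatives were median scaling, scaling on probes above background on all arrays, quantile normalization, no scaling, normexp (offset 50, on median spot signals since mean signals are not among the columns used), the mean over probes, outlier spots kept, both arrays above background, and a 1.5-fold mark. Precision is limited by 1 array per group, and copies of a probe on an array had a median SD of 0.08, 0.11 and 0.08 (log2). A planned look at protein ends was not run.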

Additional observations from a re-analysis of the deposited data

How the results depend on the processing

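No paired analysis was possible because each group has 1 array. Scaling between arrays mattered most. With median scaling, 8 members were lower with 7 factors and the medians over members were -0.32 with 7 factors and -0.45 with 8. With quantile normalization the 8-factor median was -0.42 and no member was lower with 8 than with 7 factors (0 in place of 1). With normexp the 8-factor comparison had 0 higher members and a median of -0.48. With the mean over probes 0 members were lower with 8 than with 7 factors. At 1.5-fold, 2 members were higher with 8 factors than in primary cells, and 4 were higher and 3 lower with 8 than with 7 factors.

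Leaving out scaling adds 2.12 (7 factors) and 2.33 (8 factors) to every difference from the primary array, by construction. Members then numbered 28 higher and 3 lower with 7 factors (median 1.496), 26 higher and 1 lower with 8 (median 1.64), and 0 lower with 8 against 7 (median 0.24), while 69.4% and 72.5% of all genes were higher than in primary cells and the median of all genes was 1.94 and 2.11. Among members past 2-fold, signs turned for Hspa5 (1.09), Dnajc3 (0.93), Creld2 (0.86), P4hb (1.06), Sec61a1 (1.01), Ern1 (0.66), Xbp1 (0.27), Trib3 (0.011) and Chac1 (0.025) with 7 factors, and for Dnajb9 (0.75), Dnajc3 (0.70), Creld2 (0.99), Pdia4 (0.12), P4hb (1.08), Sec61a1 (0.13), Ern1 (0.33), Xbp1 (0.75), Edem2 (0.56), Derl1 (1.29), Trib3 (0.96) and Chac1 (0.79) with 8. Derl3 and Ppp1r15a stayed below the primary culture even so, at -2.79 and -2.48 with 7 factors and -3.33 and -0.52 with 8.

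Under the 7 alternatives that keep scaling and the 2-fold mark, 9 of the 14 calls with 7 factors stayed past 2-fold throughout (not Hspa5, Dnajc3, Creld2, P4hb and Sec61a1), as did 12 of 15 with 8 factors (not Dnajc3, Eif2ak3 and Derl1) and 2 of 3 between the induced cultures (not Sec61a1). For all genes, median scaling moved the split with 7 factors from 19.1% higher and 27.1% lower to 26.1% and 22.9%. The cause of these shifts was not tested. All members were well above background, but Derl3, Ppp1r15a, Edem2 and Ern1 had low signals with 7 factors, from 151 to 250 (intensity). With normexp the 7-factor differences of Derl3 and Ppp1r15a were -4.27 and -4.04, in place of -4.91 and -4.60. The main limit is 1 culture per group.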
